A study of Oryza sativa with 6 samples.

Results

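Replication protein A is the heterotrimer that coats single-stranded DNA in the nuclei of eukaryotes. Its 70 kDa subunit carries most of the DNA-binding folds, its 32 kDa subunit is the one phosphorylated in the cell cycle and after DNA damage, and its 14 kDa subunit helps to hold the trimer together. The complex protects unwound DNA at replication forks and hands it on to polymerases, and it does the same in DNA repair and in meiotic recombination. Plants carry several genes for the larger subunits. In rice, biochemical work has placed the proteins in separate complexes that share OsRPA14. The type A complex pairs OsRPA70a with OsRPA32-2 (OsRPA32B), type B pairs OsRPA70b with OsRPA32-1 (OsRPA32A), and type C pairs OsRPA70c with OsRPA32-3 (OsRPA32C). Type A was placed in chloroplasts and the other types in nuclei, and OsRPA70c and OsRPA32C act together in meiotic crossover formation.

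The genes described here are all 7 with a probe set of their own whose name in the RefSeq gene table is OsRPA or RPA followed by a subunit number. They were 3 genes of the 70 kDa subunit, 3 of the 32 kDa subunit and 1 of the 14 kDa subunit, out of 17905 genes with a probe set of their own on the array. Only probe sets that name 1 gene were used, and each of the 7 genes had 1 of these. OsRPA70a and OsRPA32C were chosen by name on their measured values, because they differ between sro and wild type in opposite directions. The differences between the genotypes are therefore given for all 7 genes as descriptions, with standard errors and without p-values.

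The data were 6 Affymetrix rice arrays of whole inflorescences 4 to 5 mm long, 3 from the sro mutant and 3 from wild type, both from paddy-grown plants without further treatment. Wild type was the Japonica variety 9522. The labels do not describe the sro allele and no gene table used here names SRO, so the mutation was not checked in the arrays. The values are log2 intensities, 1 per probe set and array, and levels of different probe sets are not compared because probe sets differ in brightness. Replicates are biological replicates per the labels, and with 3 per genotype the number of arrays limits how precise each value is.

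In sro inflorescences the probe sets of OsRPA70b and OsRPA32A, the partners of the type B complex, were 2.50-fold and 2.56-fold lower than in wild type. OsRPA14, the shared small subunit, was 1.32-fold lower and OsRPA70a 1.21-fold lower. OsRPA32C was the only one of the 7 with a higher mean in sro, by 1.27-fold. OsRPA70c and OsRPA32B differed by 1.12-fold and 1.07-fold, with overlapping arrays. In whole inflorescences, fewer cells of a type and less RNA per cell cannot be told apart. The 2 large differences had the widest spread, since 1 wild type array was low for both genes, while the SDs of OsRPA70a and OsRPA32C, the pair chosen for their differences, were 0.053 or less.

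All 7 probe sets were well above the 10 probe sets for the fungus Magnaporthe, which served as a level without target and averaged between 4.67 and 4.70 in sro arrays and between 4.50 and 4.73 in wild type arrays. The lowest value of any replication protein A probe set was 6.54, for OsRPA32A in sro replicate 1. The plot of values by array shows each measurement beside its group mean.

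**Figure D1:**
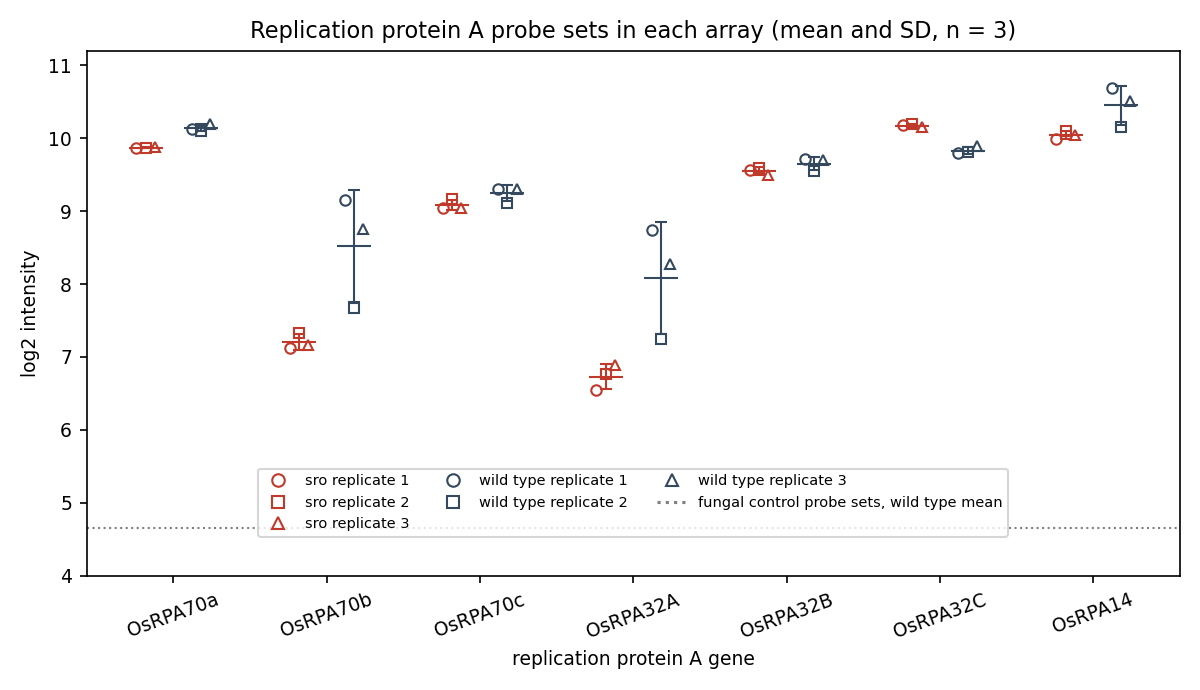
Log2 intensity of the 7 replication protein A probe sets (x axis) in each array, sro in red and wild type in blue, with the mean and SD of 3 arrays per genotype; the dotted line is the wild type mean of the fungal control probe sets. OsRPA70b and OsRPA32A have wild type SDs of 0.77, while OsRPA70a and OsRPA32C have SDs of at most 0.053 in either genotype.

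Among the 70 kDa subunits, OsRPA70b (LOC4332052, chromosome 3) had log2 intensities of 7.12, 7.33 and 7.16 in sro replicates 1, 2 and 3, against 9.16, 7.67 and 8.75 in wild type replicates 1, 2 and 3. All sro arrays were below all wild type arrays, but wild type replicate 2 stood 0.34 above the highest sro array and more than 1 unit below each of the other wild type arrays. The group means were 7.20 ± 0.11 in sro and 8.53 ± 0.77 in wild type (SD, n = 3 each), a log2 difference of -1.32 (SE 0.32).

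OsRPA70a (LOC4330902, chromosome 2), whose loss in rice leaves plants sterile through meiotic failure, had 9.87, 9.87 and 9.88 in the sro arrays, against 10.13, 10.10 and 10.19 in the wild type arrays. The groups did not overlap, and the sro arrays lay within 0.011 of one another on this scale. The means were 9.87 ± 0.01 in sro and 10.14 ± 0.05 in wild type, a log2 difference of -0.27 (SE 0.06). The sro SD of OsRPA70a was among the smallest on the array, and 99.3% of all probe sets had a larger one. The gene was chosen on these values, and a small SD favours such a choice, so nothing is read from this rank.

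OsRPA70c (LOC4337594, chromosome 5) had 9.04, 9.17 and 9.04 in the sro arrays, against 9.31, 9.12 and 9.31 in the wild type arrays. The groups overlapped, since sro replicate 2 was above wild type replicate 2. The log2 difference was -0.16 (SE 0.08).

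Among the 32 kDa subunits, OsRPA32A (LOC4331236, chromosome 2) had 6.54, 6.76 and 6.89 in sro replicates 1, 2 and 3, against 8.74, 7.24 and 8.28 in wild type replicates 1, 2 and 3. As for OsRPA70b, all sro arrays were below all wild type arrays and wild type replicate 2 was the lowest of its group. The means were 6.73 ± 0.17 in sro and 8.09 ± 0.77 in wild type, a log2 difference of -1.36 (SE 0.33).

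OsRPA32C (LOC9266781, chromosome 6) had 10.18, 10.19 and 10.15 in the sro arrays, against 9.79, 9.81 and 9.89 in the wild type arrays. All sro arrays were above all wild type arrays. The means were 10.17 ± 0.02 in sro and 9.83 ± 0.05 in wild type, a log2 difference of 0.34 (SE 0.06). Its partner in the type C complex, OsRPA70c, thus had a difference of the opposite sign with overlapping arrays.

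OsRPA32B (LOC4330068, chromosome 2) had 9.57, 9.59 and 9.49 in the sro arrays, against 9.71, 9.54 and 9.70 in the wild type arrays. The groups overlapped, and the log2 difference was -0.10 (SE 0.07). OsRPA14 (LOC4327706, chromosome 1), the only gene found for the 14 kDa subunit, had 9.99, 10.10 and 10.05 in the sro arrays, against 10.68, 10.15 and 10.51 in the wild type arrays. The groups did not overlap, but the lowest wild type array, replicate 2, was 0.05 above the highest sro array. The log2 difference of OsRPA14 was -0.40 (SE 0.12).

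In the limma fit across 57258 probe sets, 14.6% passed an adjusted p under 0.05, 9.04% lower and 5.59% higher in sro. Of the 7 replication protein A probe sets, 4 were past that threshold: OsRPA70a, OsRPA70b and OsRPA32A lower and OsRPA32C higher. The arrays of the genotypes did not overlap for 5 of the 7 (4 with sro below and 1 with sro above), and for 34.6% of all probe sets (17.6% with sro below and 17% with sro above). Many of all probe sets had no gene listed. Over the 17905 genes with 1 probe set each, 26.6% were called. Of these genes, 6403 had all sro arrays below and 3141 all sro arrays above the wild type arrays. Since this contrast was known when the genes were proposed, nothing is read from these counts. The count of replication protein A probe sets called lower was 0 without any 1 of the sro replicates or without wild type replicate 3. It was 1 without wild type replicate 1, 4 without wild type replicate 2, and 1 in a linear model without moderation. Of the 12 alternatives set out for the fit, OsRPA70a was not past the threshold in 5 (the replicate block, without each sro replicate, and without wild type replicate 3), and OsRPA70b and OsRPA32A in 6 each.

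Each wild type array set against the mean of the other two gives a measure within 1 genotype. Wild type replicate 2 was examined because it was seen to be low for OsRPA70b. Relative to wild type replicates 1 and 3, replicate 2 was lower by 1.28 log2 units for OsRPA70b and by 1.27 for OsRPA32A, and only 0.0210% and 0.0245% of all probe sets had a lower deviation. For OsRPA14 the deviation was -0.44, for OsRPA70c -0.19 and for OsRPA32B -0.16. OsRPA70a and OsRPA32C deviated least, by -0.06 and -0.03. The wild type SD of OsRPA70b and of OsRPA32A, 0.77, was exceeded by 0.168% and 0.166% of all probe sets.

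Set beside the differences between genotypes, the values of OsRPA70b were -1.32 in sro against wild type and -1.28 in wild type replicate 2. In the same order they were -1.36 and -1.27 for OsRPA32A and -0.40 and -0.44 for OsRPA14. They were -0.16 and -0.19 for OsRPA70c, and -0.10 and -0.16 for OsRPA32B. For OsRPA70a and OsRPA32C the values were -0.27 and -0.06, and 0.34 and -0.03, and the first of each was known when the pair was chosen, so the contrast with the other genes is a description only. Wild type replicate 2 enters both columns of values, so they are given side by side and no relation between them is computed.

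**Figure D2:**
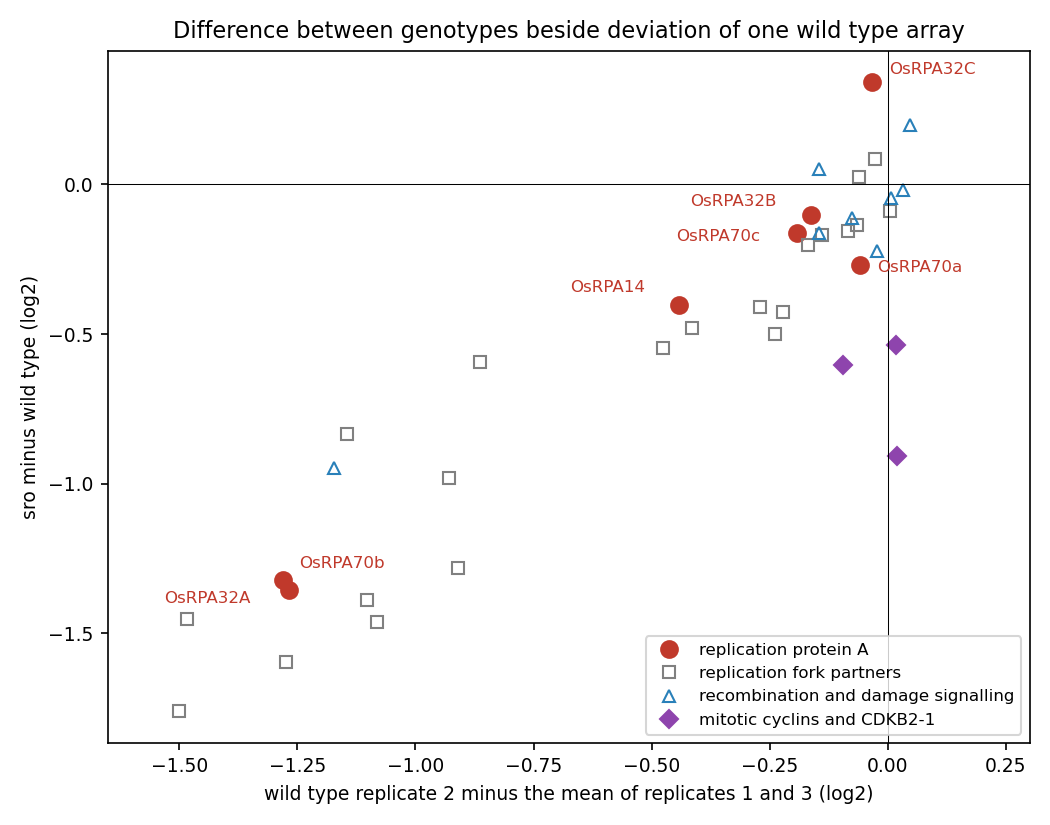
Log2 difference of sro minus wild type (y axis) and of wild type replicate 2 minus the mean of replicates 1 and 3 (x axis) for the replication protein A genes (red), 21 replication fork partners (squares), 8 recombination and damage signalling genes (triangles) and 3 mitotic genes (diamonds). OsRPA70b and OsRPA32A lie at the lower left at -1.28 and -1.27 on the x axis, and OsRPA70a, OsRPA32C and the mitotic genes lie within 0.1 of 0 on that axis.

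With single arrays on one side, the 3 sro arrays against wild type replicate 1, 2 or 3 alone gave log2 differences of -1.95, -0.47 and -1.55 for OsRPA70b and of -2.01, -0.51 and -1.54 for OsRPA32A. On the log2 scale the difference from wild type replicate 1 was 4.17 times that from replicate 2 for OsRPA70b and 3.94 times for OsRPA32A, with the same sign each time. For OsRPA14 the same comparisons gave -0.63, -0.11 and -0.46. For OsRPA70a they gave -0.26, -0.23 and -0.32, and for OsRPA32C 0.38, 0.36 and 0.28, and both genes were chosen on these values. OsRPA32B changed sign, at -0.16, 0.0074 and -0.15.

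**Figure D3:**
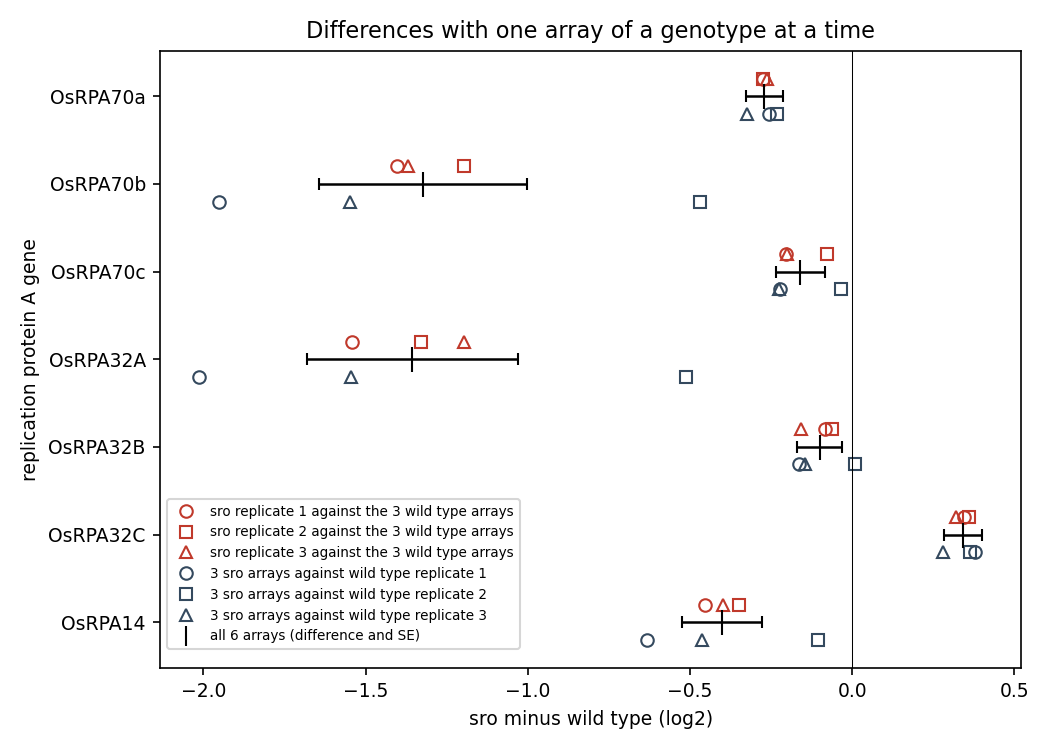
Log2 difference of sro minus wild type (x axis) for each replication protein A gene, from all 6 arrays with its SE (black), from each sro array against the 3 wild type arrays (red) and from the 3 sro arrays against each wild type array (blue). The blue squares, wild type replicate 2, lie far to the right of the other blue points for OsRPA70b (-0.47) and OsRPA32A (-0.51), but among them for OsRPA32C (0.36).

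Labelling controls and measures of RNA quality also differed between the genotypes. The dap spike at its 5 prime end had log2 intensities of 10.3, 7.95 and 9.48 in sro replicates 1, 2 and 3, against 7.59, 7.55 and 7.77 in wild type replicates 1, 2 and 3. The lys spike had 7.67, 7.22 and 7.48 in the sro arrays, against 7.04, 6.85 and 6.98 in the wild type arrays, and the phe spike 8.03, 7.79 and 7.92 against 7.51, 7.47 and 7.66. All sro arrays were above all wild type arrays for these spikes. For 1 set of actin probe sets, the excess of signal at the 3 prime end over the 5 prime end was 4.46, 4.94 and 4.90 in the sro arrays. In the wild type arrays it was 5.13, 5.24 and 5.17. For 1 set of GAPDH probe sets this excess was 1.29, 1.63 and 1.37 in the sro arrays, against 1.64, 1.66 and 1.65 in the wild type arrays. Both were lower in every sro array, whereas for a second set of GAPDH probe sets (0.42, 0.70 and 0.75 in the sro arrays, against 0.39, 0.52 and 0.51 in the wild type arrays) the groups overlapped. For a second set of actin probe sets the groups overlapped too. That excess was 2.88, 3.34 and 3.16 in the sro arrays, against 3.48, 3.63 and 3.32 in the wild type arrays. Each sro array alone against wild type, in the order of replicates 1, 2 and 3, gave -1.40, -1.20 and -1.37 for OsRPA70b, -1.54, -1.33 and -1.20 for OsRPA32A and -0.46, -0.35 and -0.40 for OsRPA14. The part of labelling or RNA quality in the replication protein A differences was not tested.

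To describe which genes had a pattern most like each replication protein A gene, the 6 array values of each probe set were centred on their own mean and the root mean square difference between probe sets was taken. This measure responds to both the shape and the size of a pattern. For OsRPA70b the 5 nearest probe sets of named genes were those of MCM2 (0.09 log2 units), OsRPA32A (0.11), MCM5 (0.11), OsMCM6 (0.12) and MCM3 (0.13), where the median over all probe sets with 1 gene was 0.78. For OsRPA32A they were OsMCM6 (0.10), OsRPA70b (0.11), MCM2 (0.11), MCM5 (0.11) and MCM3 (0.15). MCM2 to MCM7 encode the ring of the replicative helicase, which unwinds the DNA that replication protein A then coats. Among 22434 other probe sets with 1 gene, 2 were nearer to OsRPA70b than OsRPA32A was, and 2 were nearer to OsRPA32A than OsRPA70b was. The 5 other members were each at least 0.54 from OsRPA70b. OsRPA14 was the nearest of them, and 912 of the 22434 probe sets were nearer to OsRPA70b than OsRPA14 was. OsRPA14 was also lower in sro and lowest within wild type in replicate 2, with smaller differences.

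**Figure D4:**
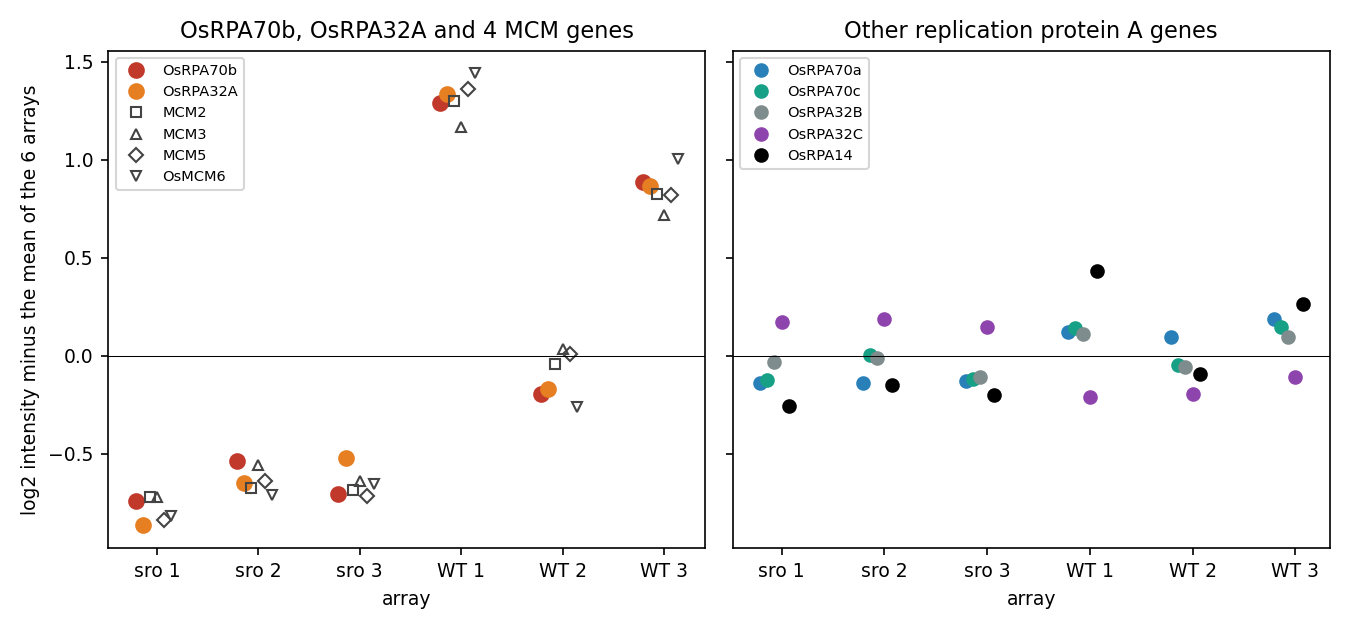
Log2 intensity minus the probe set's mean over the 6 arrays (y axis) in each array (x axis) for OsRPA70b, OsRPA32A and the 4 MCM genes nearest to both (left), and for the other 5 replication protein A genes (right). On the left all 6 probe sets are low in the 3 sro arrays and near 0 in wild type replicate 2, and on the right OsRPA32C is above its mean in the sro arrays and below it in the wild type arrays.

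The other members had different neighbours in this measure. OsRPA70c was nearest to ORC2 (0.02), a subunit of the origin recognition complex, followed by the diaminopimelate epimerase gene DAPF (0.02) and by ORC1 (0.03). CTU1 (0.03) and EIN2 (0.03) came next. The pattern of OsRPA70c was small, and the median over all probe sets with 1 gene was 0.14. For OsRPA70a the 5 nearest were SPP30-like (LOC4327685, 0.0098), the homeobox gene HB2 (LOC4348919, also Hox9, 0.02), OsRMR2 (LOC4344437, 0.02), the homeobox gene Hox21 (LOC4331774, 0.02) and TBP2 (LOC4344373, 0.02). For OsRPA32C they were CSLA9 (LOC4341571, 0.02), HCT1 (0.02), BZIP60 (LOC4344086, 0.02), Alpha-ETF (LOC4334698, 0.03) and ADIPOR2 (LOC4328501, 0.03). None of these 10 genes is in the lists of replication or recombination genes described next. For OsRPA14 the nearest were OsPMEI28 (0.03), OsSUT2 (0.04), PBZ1 (0.06), GPB-LR (0.06) and GRF7 (0.06). For OsRPA32B they were GEN1 (0.02), OsPP2C66 (0.02), LST8 (0.03), TUBC (0.03) and NIP1-1 (0.03). No gene named here for OsRPA14 or OsRPA32B is in those lists either. Patterns of members other than OsRPA70a and OsRPA32C were listed after their values were seen.

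Of 22 replication fork partners named in the gene table, 21 were measured. They are the MCM helicase, the origin recognition complex (ORC), DNA polymerase delta, the clamp PCNA, its loader RFC and the flap nuclease FEN1. By limma's adjusted p over all probe sets, 12 of the 21 fell in sro, 0 rose and 9 did not pass. Over all 17905 genes with 1 probe set each, 26.6% were called, 19.4% lower and 7.28% higher. The median log2 difference was -0.50 over the 21 genes and -0.06 over all genes. The 12 included the 6 MCM genes, POLD1 and POLD2, RFC3 and RFC5, ORC4 and ORC5. Their count was 1 in a linear model without moderation and 2 without wild type replicate 3, against 14 at most when 1 array was left out.

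The 4 fork genes with the smallest p were ORC4, MCM3, MCM5 and MCM2. ORC4, an origin recognition subunit, had 7.52, 7.52 and 7.57 in the sro arrays, against 8.11, 7.88 and 8.13 in the wild type arrays (log2 difference -0.50, SE 0.08, limma adjusted p = 0.0049). MCM2 had 8.28, 8.32 and 8.31 in the sro arrays, against 10.3, 8.96 and 9.82 in the wild type arrays, a log2 difference of -1.39 (SE 0.28, limma adjusted p = 0.0148). Wild type replicate 2 was low for MCM2 as it was for OsRPA70b. MCM3 and MCM5 fell by 1.28 and 1.46 on the log2 scale (limma adjusted p = 0.0108 and 0.0125). The MCM2 call was lost in a linear model without moderation and without sro replicate 1 or wild type replicate 3, the MCM5 call in that model and without wild type replicate 3, and the MCM3 call in that model.

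Other fork genes had smaller or more variable differences. PCNA, the sliding clamp, had a log2 difference of -0.59 (SE 0.23) and FEN1A and FEN1B had 0.02 and 0.08, and none of these passed the test. The clamp loader genes RFC1, RFC2 and RFC4 had differences between -0.16 and -0.09 without passing it. Within wild type, 20 of the 21 fork genes and 6 of the 7 replication protein A genes were lowest in replicate 2, compared with 43.8% of all genes. The deviation of replicate 2 was -1.10 for MCM2 and -0.86 for PCNA, with a median of -0.41 over the 21 genes and -0.02 over all genes.

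Of 9 recombination and damage signalling genes named in the gene table, 8 were measured. In the limma fit 0 of them passed the threshold in either direction, while 4 had an unadjusted p under 0.05. Over all 17905 genes with 1 probe set each, 26.6% passed the threshold and 7963 had an unadjusted p under 0.05. Nothing is therefore read from the count of 4. The median log2 difference of the 8 genes was -0.08. The 4 with the smallest p were MER3 (-0.22, limma adjusted p = 0.0622), EXO1 (limma adjusted p = 0.0693), HEI10 (0.20, limma adjusted p = 0.131) and NBS1 (-0.16, limma adjusted p = 0.139). MER3 and HEI10 act in meiotic crossover formation, EXO1 is a nuclease that resects DNA ends, and NBS1 belongs to the complex that senses breaks. EXO1 averaged 4.45 in sro, below the fungal probe sets, and 5.40 in wild type, so its level in sro is only bounded. With the fungal level in place of the lower sro values, the group means of EXO1 differed by 1.64-fold, but the groups overlapped. That fold is not a minimum, because wild type replicate 2 also lay below the fungal level and was kept as measured. Wild type replicate 2 (4.62) was below sro replicate 2 (4.65) and below the fungal probe sets of its own array (4.73). EXO1 passed the test without wild type replicate 2. DMC1, the meiotic recombinase that takes over DNA coated by replication protein A, had a log2 difference of -0.02. With array weights in the fit, 2 of the 8 genes (MER3 and EXO1) were called lower, and after a second quantile normalization 1 (HEI10) was called higher. No gene in the table carried a name on the list of organelle single-stranded DNA binding and telomere proteins.

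Markers of the cells that an inflorescence holds moved as follows. Over all 17905 genes with 1 probe set each, 19.4% were called lower and 7.28% higher. All 9 genes listed for dividing cells fell in sro, the 6 MCM genes and the mitotic genes CYCB1-1, CYCB2-2 and CDKB2-1. Their summed linear intensity was 2207 to 2238 in sro arrays and 3485 to 6018 in wild type arrays. The 6 MCM genes are the ones already counted among the fork genes, so their calls are not separate results. The mitotic genes had log2 differences of -0.54, -0.91 and -0.60 (limma adjusted p between 0.000125 and 0.000917), yet in wild type replicate 2 they deviated by only 0.02, 0.02 and -0.10, unlike OsRPA70b, OsRPA32A and the MCM genes. The 6 floral organ genes were far above the fungal probe sets in both genotypes, with 4 called higher and a summed linear intensity of 14941 to 15701 in sro arrays and 12647 to 14064 in wild type arrays. Of 4 measured meiocyte genes 0 were called, and PAIR1 was below the fungal probe sets in both genotypes. All 3 tapetum and late anther genes rose, to a summed linear intensity of 866 to 989 in sro arrays against 86.7 to 103 in wild type arrays, where OsC6 and RTS were below the fungal probe sets. Of 2 photosynthetic genes CAB2R fell and RBCS did not pass the test (0.17). The part of any of these cell types or of wild type replicate 2 in the replication protein A differences was not tested.

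The 7 genes lie on chromosomes 1, 2, 3, 5 and 6, with OsRPA70a, OsRPA32A and OsRPA32B on chromosome 2, and no 2 of them are adjacent. Of their immediate protein-coding neighbours in the RefSeq gene order, 8 were measured, and 2 of those fell, while 26.6% of all genes with 1 probe set each were called and 19.4% fell, so nothing is read from this count. The gene after OsRPA70a is OsGRF1, a growth-regulating factor, which had a log2 difference of -1.25 (SE 0.08, limma adjusted p = 0.000123), and the gene before it had 0.04. The gene before OsRPA32B, the transporter gene OsYSL14, had -0.28 (limma adjusted p = 0.034). Both measured neighbours of OsRPA70b and of OsRPA32A had differences between -0.30 and 0.20 without passing the test.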

How the data were processed

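The deposited values are log2 intensities, 1 per probe set and array. Per the submitters' processing notes the tools were RMA and Partek; no version or setting is given there. The log2 scale was inferred from the values. Values were used as deposited, and the 123 AFFX control probe sets took no part in the tests.

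The platform annotation gave each probe set's gene number, which was looked up in the RefSeq gene table (assembly ASM3414082v1) for names, chromosomes and gene order only. Of the probe sets tested, 22436 had 1 gene, 95 had several and 34727 had none listed.

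limma 3.58.1 in R 4.3.3 (lmFit and eBayes, no covariates, two-sided, Benjamini-Hochberg over 57258 probe sets) compared sro with wild type and was tested on simulated data. Standard errors are limma's moderated ones. Gene lists were matched on symbols and synonyms with 1 probe set per gene, the brightest. A zinc transporter also called ZIP4 was left out. Genes named are all replication protein A genes, the 4 of each list with the smallest p, the listed markers, the 5 with the nearest pattern for OsRPA70a and OsRPA32C, and genes chosen after their values were seen, which are the other fork genes, DMC1, the nearest patterns of other members and the neighbours. The members and lists were chosen with earlier results of these data known. The alternatives were a variance trend, replicate block, no moderation, array weights, quantile normalization, leaving out dim probe sets and leaving out each array. Single arrays against the other genotype, and the fungal level, were chosen after seeing the data. Python 3.11.15, pandas 2.3.3 and matplotlib 3.10.9 were used for names and figures.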

Additional observations from a re-analysis of the deposited data

How the results depend on the processing

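Of the 57258 probe sets, 8377 were called (3202 higher and 5175 lower). Without moderation 4965 were called (1993 higher and 2972 lower), and with 1 array left out the count lay between 4589 and 7907 (1637 to 2700 higher and 2952 to 5207 lower). Of the replication protein A probe sets, 3 were called lower, and this count was 1 without moderation and 0 to 4 with 1 array left out. In each of these 1 was called higher, OsRPA32C, which was chosen on this difference, so nothing is read from the steadiness of its call. Lower calls among the 21 fork genes were 12, with 1 without moderation and 2 to 14 with 1 array left out. Lower calls among the 8 recombination genes were 0, with 1 under a variance trend or without the dimmer probe sets, 2 with array weights and 0 to 1 with 1 array left out, and after quantile normalization 1 was higher. Against single wild type arrays, differences moved by more than the replicate SD to -1.95 (replicate 1) and -0.47 (replicate 2) for OsRPA70b, -2.01 and -0.51 for OsRPA32A, and -0.63 and -0.11 for OsRPA14. Against replicate 2 they moved to -0.033 for OsRPA70c and 0.0074 for OsRPA32B. OsRPA70a gave -0.23 (replicate 2) and -0.32 (replicate 3), and OsRPA32C 0.28 (replicate 3). The cause was not tested.

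Over all probe sets, same-numbered replicates shared little deviation (correlations of -0.02, -0.03 and -0.0037). The labels do not say whether the numbers pair the arrays, and these correlations cannot exclude it. With the replicate block 6315 probe sets were called, 2 replication protein A probe sets were lower, without OsRPA70a, and 11 fork genes. OsRPA14 passed the threshold under a variance trend, with array weights, without the dimmer probe sets and without wild type replicate 2. With 1 array left out, the difference lay between -1.75 and -1.01 for OsRPA70b, -1.78 and -1.03 for OsRPA32A, -0.29 and -0.24 for OsRPA70a, and 0.32 and 0.37 for OsRPA32C.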
